A study of Bos taurus with 11 samples.

Results

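S100A8, S100A9 and S100A12 are the calgranulins, small calcium-binding proteins of the S100 family. They were described here in the endometrium, the inner lining of the uterus, of 11 dairy cows early after calving. The array held 4 probe sets whose annotation gave 1 of these 3 symbols alone, of 24016 probe sets in all, and the 3 genes were 3 of 9155 genes measured. S100A9 had 2 probe sets and the other members 1 each, and the probe set with the highest mean over all cows was taken as the main one of its gene. The genes were chosen with their difference between the groups already known. That difference is therefore given as a description, without a test, and what was tested is how the genes ran together over cows once the group means were removed.

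The cows were Holstein-Friesians that had calved before (parity averaged 4.7), slaughtered 14 ± 0.4 days after calving for tissue. Negative energy balance means that milk and maintenance take more energy than the feed gives. The regimes began on day 2. Mild cows (n = 5) ate grass silage without limit plus 8 kg of concentrate daily, with 1 milking a day. Severe cows (n = 6) were fed 25 kg of silage plus 4 kg of concentrate daily, with 3 milkings a day. Replicate numbers only name the cows, and each cow was 1 array.

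S100A8 and S100A9 pair to form calprotectin, which makes up much of the cytosolic protein of neutrophils and is also made by monocytes and by stressed epithelia. Calprotectin binds zinc and manganese and so withholds these metals from microbes. Once released, calgranulins act as danger signals through TLR4 and through RAGE, the receptor encoded by AGER, which S100A12 binds. After calving the uterus is open to bacteria, and neutrophils entering the endometrium are part of the normal clearance.

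Values are RMA signals in log2 units, in which a difference of 1 is a doubling of signal. The array median was 6.20 throughout, and pairs of arrays correlated at 0.948 to 0.991. As a sign of RNA quality, the 3' minus 5' difference averaged over 6 bovine control transcripts lay between 0.45 and 0.65 in mild and between 0.42 and 0.82 in severe cows. Dim refers to a signal under 5.52, below which 40% of probe sets lay on average over cows.

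S100A8, the smaller calprotectin subunit, was at 7.64, 6.48, 9.39, 9.56 and 7.67 in mild cows 1 to 5. In severe cows it ran from 10.27 to 13.59 with a median of 11.04. Every severe cow lay above every mild cow, and the lowest severe cow, severe 1, was 0.71 above the highest mild cow, mild 4. The means were 8.15 ± 1.31 (SD, n = 5) in mild and 11.39 ± 1.18 (SD, n = 6) in severe cows. Severe minus mild was 3.24 ± 0.66 (SE), or 9.45-fold.

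S100A12, the RAGE ligand also called EN-RAGE, was at 8.33, 6.89, 9.93, 10.14 and 8.31 in mild cows 1 to 5. Severe cows ran from 10.92 to 13.71 with a median of 11.34, again all above the highest mild cow, with a gap of 0.78. As for S100A8, mild 4 and mild 3 were the highest mild cows and mild 2 the lowest. The means were 8.72 ± 1.34 (SD, n = 5) and 11.75 ± 1.04 (SD, n = 6), and severe minus mild was 3.04 ± 0.63 (SE), or 8.20-fold.

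S100A9, the larger calprotectin subunit, was at 6.38, 6.24, 6.61, 6.76 and 6.33 in mild cows 1 to 5 on its main probe set. Severe cows ran from 6.95 to 10.65 with a median of 7.80, and the groups were 0.18 apart. The mild cows thus spanned 0.53 log2 units. Whether this probe set is compressed near its own background was not tested, so neither this span nor its fold change is an exact size. The means were 6.46 ± 0.22 (SD, n = 5) and 8.17 ± 1.38 (SD, n = 6), a difference of 1.71 ± 0.56 (SE), or 3.27-fold.

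The other S100A9 probe set put the mild cows at 5.05, 4.39, 5.78, 6.21 and 4.93 and the severe cows between 6.60 and 11.36 with a median of 7.77. It spanned 1.82 log2 units in mild cows and gave a difference of 3.05 ± 0.75 (SE), or 8.28-fold. The size of the S100A9 difference therefore depended on the probe set, at 1.71 or 3.05 log2 units, that is 3.27-fold or 8.28-fold. On the second probe set 3 of 5 mild cows were dim, so its size is not exact either, since low signals are compressed. Over cows the probe sets ran together (r = 0.97 over 11 cows after removing group means).

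**Figure D1:**
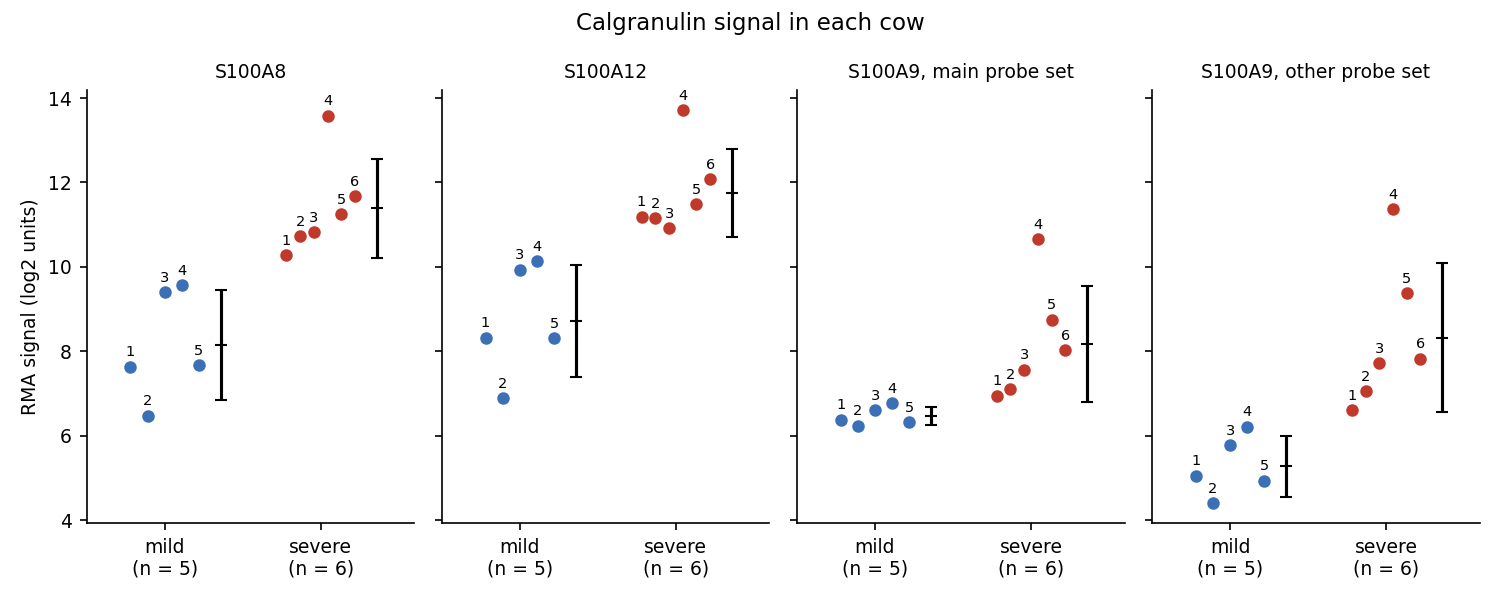
RMA signal in log2 units (vertical axis) of each calgranulin probe set in mild (blue, n = 5) and severe (red, n = 6) cows, with the cow's number above each point and the mean ± SD as a bar. In all 4 panels every severe cow lies above every mild cow and severe 4 is the highest cow.

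All 4 probe sets had the groups apart, with every severe cow above every mild cow. Over all genes 0.754% had the groups apart in this direction, and nothing is read from the comparison, since the genes were chosen on this contrast. In RNA of a whole tissue, more cells that express a gene and more RNA per cell cannot be told apart. With the 3' minus 5' difference as a covariate, an alternative chosen after seeing the data, the differences were 3.46 for S100A8, 3.24 for S100A12 and 1.92 for S100A9.

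Calgranulin signal also differed widely between cows of the same group. For S100A9 on its main probe set this held in severe cows (SD 1.38) but not in mild cows (SD 0.22). The SD within groups was 1.24 for S100A8, 1.18 for S100A12 and 1.04 for S100A9, where the median gene had 0.19. By this spread S100A8 ranked 42, S100A12 ranked 50 and S100A9 ranked 84 of 9155 genes. Severe 4 was the highest cow for each gene, above the next severe cow by 1.92 for S100A8, 1.64 for S100A12 and 1.91 for S100A9. Without severe 4 the S100A9 difference was 1.22. Mild 2 was the lowest cow for each gene, at 1.19 below the mild median for S100A8, 1.43 for S100A12 and 0.14 for S100A9.

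The calgranulins were then compared over cows, each value taken as the deviation from its group mean so that the difference between groups did not enter. S100A8 and S100A12 ran almost in step, with r = 0.98 and rho = 0.95 over 11 cows (exact permutation p = 0.000255 and 0.000486, adjusted p = 0.00840 and 0.0107). A cow that was 1 log2 unit above its group in S100A8 was on average 0.94 above it in S100A12. S100A8 and S100A9 gave r = 0.76 and rho = 0.84 (exact permutation p = 0.000694 and 0.000648, adjusted p = 0.0115 and 0.0107). S100A9 and S100A12 gave r = 0.69 and rho = 0.81 (exact permutation p = 0.00336 and 0.00160, adjusted p = 0.0369 and 0.0176). These values of S100A9 are those of its main probe set. The other S100A9 probe set had r = 0.85 with S100A8 and 0.78 with S100A12, without a test. The tests were two-sided, permuted cows within groups over 86400 arrangements, and were adjusted over 33 relations, the 3 pairs and 30 with the other genes below.

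These relations rest in different degree on a few cows. Without mild 4 and severe 4, the cows farthest from the median of S100A8, r was 0.96 for S100A8 with S100A12 (exact permutation adjusted p = 0.103). It was 0.51 for S100A8 with S100A9, and without severe 1 and severe 4 to 0.45 for S100A9 with S100A12 (adjusted p = 0.146 and 0.167), so the relations of S100A9 rest in part on those cows. Without severe 4 alone r was 0.53 for S100A8 with S100A9 and 0.41 for S100A9 with S100A12. Within the 6 severe cows r was 0.97 for S100A8 with S100A12, 0.95 for S100A8 with S100A9 and 0.91 for S100A9 with S100A12 (exact permutation p = 0.0111, 0.0111 and 0.0389, adjusted p = 0.183, 0.183 and 0.428). For the same pairs r within the 5 mild cows was 0.997, 0.96 and 0.95, without a test. The main S100A9 probe set spread far less in mild than in severe cows (SD 0.22 and 1.38), unlike S100A8 (1.31 and 1.18).

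**Figure D2:**
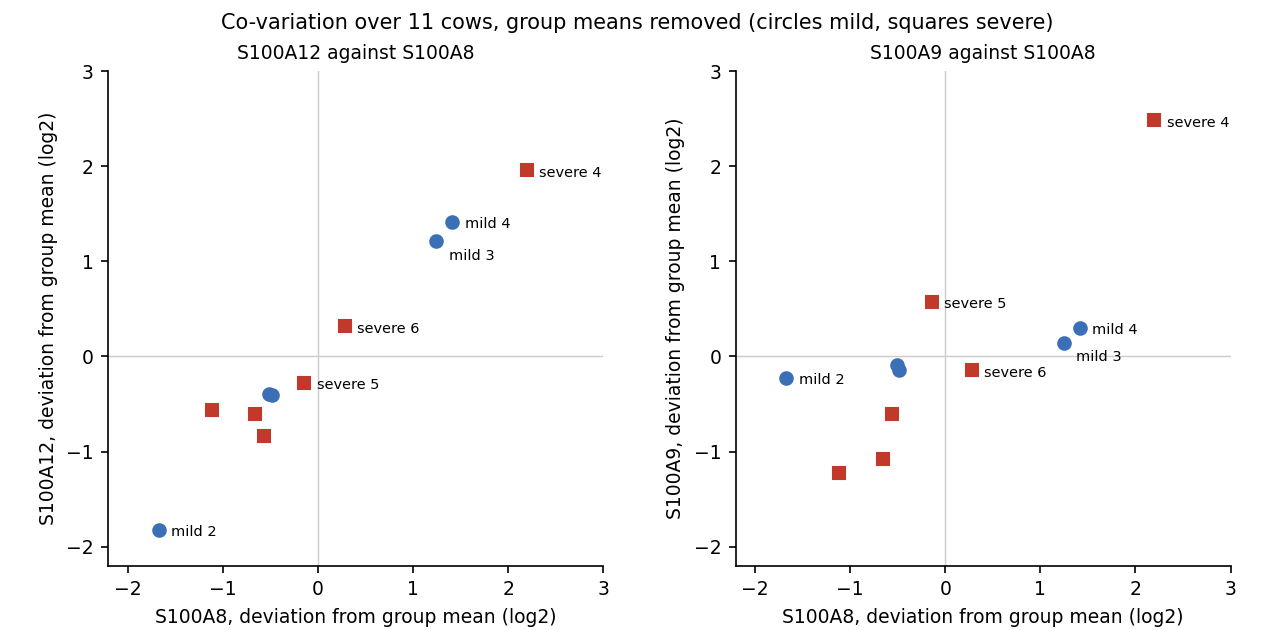
Deviation from the group mean in log2 units of S100A12 (left, vertical axis) and S100A9 main probe set (right, vertical axis) against that of S100A8 (horizontal axes) in 5 mild (circles) and 6 severe (squares) cows, with cows away from the crowd named. S100A12 follows S100A8 in both groups (r = 0.98 over 11 cows). S100A9 moves little among mild cows and strongly among severe cows (r = 0.76 over 11 cows). Within each group S100A9 also follows S100A8, with r = 0.96 in mild and 0.95 in severe cows.

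The measure of RNA quality also ran with the calgranulins over cows, though the relations did not pass the test and its part in the results above was not tested. The 3' minus 5' difference gave r = -0.58 with S100A8, -0.67 with S100A9 and -0.58 with S100A12 over 11 cows, and rho = -0.51, -0.58 and -0.57 (exact permutation p = 0.0692, 0.0910 and 0.0589 for r and 0.132, 0.0899 and 0.0850 for rho). All adjusted p over these 3 relations were 0.0910 for r and 0.132 for rho, and without severe 2 and severe 4 r was -0.42, -0.23 and -0.45. With this measure removed too, r was 0.97 for S100A8 with S100A12, 0.62 for S100A8 with S100A9 and 0.50 for S100A9 with S100A12.

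Each calgranulin was also compared with 10 measured genes of other roles: CXCR1, TREM1 and MMP9 of neutrophils, CD68 of macrophages, EPCAM and KRT8 of epithelium, the receptor TLR4, the transcription factor CEBPB, the cytokine IL1B and the transglutaminase TGM3. By r over all 11 cows 0 of 30 relations passed (smallest adjusted p = 0.410), and r ran from -0.21 to 0.64. The highest r was that of S100A9 with CXCR1, the interleukin 8 receptor of neutrophils, at 0.64 (rho = 0.66, exact permutation p = 0.0860 and 0.0620). By rho 1 of 30 passed, S100A9 with TREM1, an activating receptor of neutrophils and monocytes, at rho = 0.87 and r = 0.62 (exact permutation adjusted p = 0.0243 and 0.479). Of these 10 genes KRT8 was dim in all 11 cows, and CXCR1, TREM1, IL1B and TGM3 were dim in all 5 mild cows, where differences between cows are compressed. Values over all cows can hide others. Without severe 1 and severe 4, r of S100A9 with IL1B was 0.93 (exact permutation p = 0.00104, unadjusted), against 0.48 over all cows. Of the cows then left, severe 5 was the highest in both genes, at 8.74 in S100A9 and 8.30 in IL1B. How far this r rests on severe 5 was not tested. With S100A8, S100A9 and S100A12, EPCAM had r of -0.91, -0.96 and -0.91 in mild cows. In severe cows these were 0.14, -0.10 and 0.27. Both were picked after the values were seen.

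Among 7132 other genes that were not dim, the 12 most like the calgranulins were found by the mean r with the 3 of them over 11 cows. UBE2L6, the enzyme that conjugates the modifier ISG15, came first with a mean r of 0.90, and its r with S100A8 was 0.95. EMC3, of the endoplasmic reticulum membrane complex, had 0.87, and RNF31, a ligase that builds linear ubiquitin chains, 0.85. The proline-degrading enzyme ALDH4A1 had 0.84, FAM98A 0.82 and the collagen-binding proteoglycan FMOD 0.82. Next came the interferon-induced membrane protein IFITM1 with 0.82, the growth factor TGFB3 with 0.82, the mevalonate pathway kinase PMVK with 0.80, the vesicle fusion protein STX8 with 0.79, the interferon-induced IFI27 with 0.79 and SYAP1 with 0.79. The median gene had 0.04, and 90% of genes lay between -0.49 and 0.55. As the top of 7132 genes ranked over 11 cows, these values are extremes. Some of the 12 varied less within groups than the median gene, whose SD was 0.19. The SD was 0.17 for EMC3, 0.09 for RNF31, 0.18 for ALDH4A1, 0.12 for FAM98A, 0.07 for STX8 and 0.10 for SYAP1. In the others it ran from 0.20 for PMVK to 1.31 for IFI27.

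None of these 12 genes differed between the groups at an unadjusted limma p under 0.05. Severe minus mild was 0.43 ± 0.24 (SE) for UBE2L6, 0.79 ± 0.37 for IFITM1 and 1.14 ± 0.70 for IFI27, and it lay between -0.12 and 0.20 in the other 9. Limma gave them adjusted p between 0.394 and 0.971. The order is not firm, since with each cow left out in turn 5 to 9 of the 12 remained. UBE2L6 and EMC3 remained in all 11 of these, and within the severe cows alone 2 of the 12 remained.

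Across all probe sets the limma test of severe against mild called 0 of 24016 at an adjusted p under 0.05, that is 0%, and 3085 at an unadjusted p under 0.05, 6.97% of all probe sets as higher and 5.88% as lower. It called 16 without severe 1 and 2 without severe 3. Counts below are therefore at an unadjusted p under 0.05, which 8.45% of genes passed as higher in severe cows and 7.46% as lower, and no gene named below passed the adjusted test. The median gene differed by -0.00378.

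Of 12 other genes of the S100 list, S100PBP, a binding protein of S100P, among them, 4 were higher at an unadjusted p under 0.05 and 0 were lower, with a median difference of 0.11. S100A2, made mainly by epithelia, ran from 9.33 to 10.48 in mild cows and from 10.04 to 12.22 in severe cows, and 4 of 6 severe cows lay above all mild cows. Its difference was 1.21 ± 0.39 (SE, limma adjusted p = 0.307). S100A14, another epithelial member, differed by 0.72 ± 0.27, S100A4, found in fibroblasts and leukocytes, by 0.69 ± 0.23, and S100A13, which takes part in the export of FGF1, by 0.62 ± 0.17.

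The remaining S100 genes stood closer to 0. S100A10 and S100A11, which bind annexins, differed by 0.26 and 0.08, S100A16 by 0.14 and S100A1 by 0.05. S100B differed by -0.01. S100A7, psoriasin, an antimicrobial protein of skin and udder epithelium, averaged 4.24 in mild and 4.23 in severe cows and was dim in all cows. S100G, the calcium carrier calbindin-D9k, ran from 8.05 to 11.57 in severe and from 9.79 to 11.72 in mild cows, with a difference of -0.57 ± 0.62 (SE). Over cows S100A14, S100A16 and S100A11 had a mean r with the calgranulins of 0.68, 0.66 and 0.64, and S100A13, S100G and S100B of 0.13, 0.02 and -0.06.

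**Figure D3:**
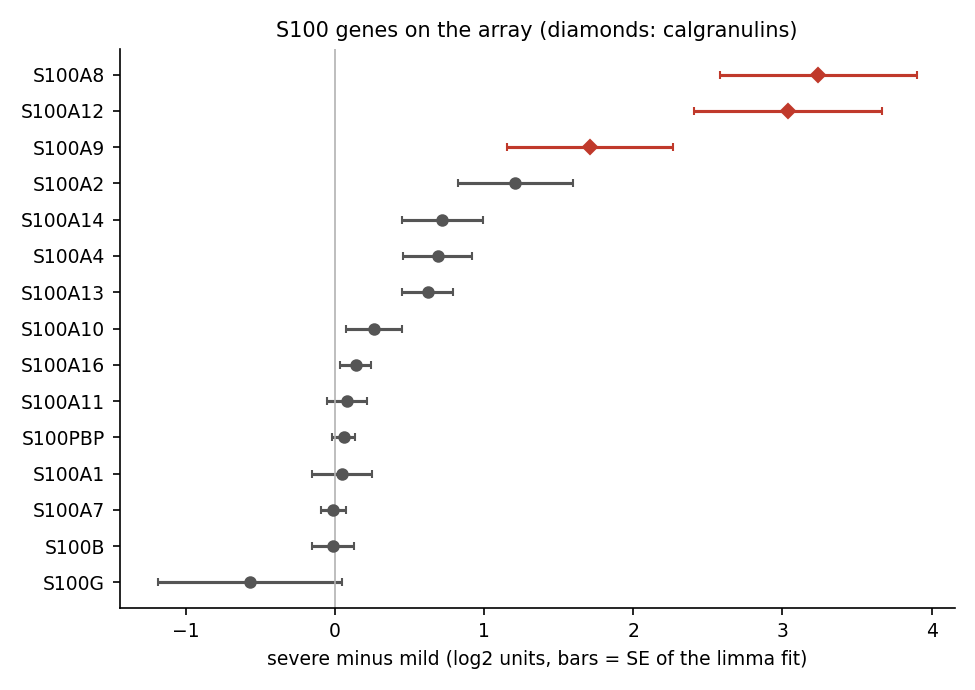
Severe minus mild in log2 units (horizontal axis; bars are the SE of the limma fit) of each S100-list gene measured, with the calgranulins as red diamonds. The calgranulins, chosen on this contrast, stand at 1.71 to 3.24, and the other genes run from S100A2 at 1.21 to S100G at -0.57.

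By RefSeq's gene order in ARS-UCD2.0, which served here for names and neighbours alone, S100A8, S100A12 and S100A9 lie next to each other in this order among protein-coding genes. Of the 14 protein-coding genes on each side, 8 were measured, all on the S100A8 side, CHTOP and 7 S100 genes. Of these 4 were higher at an unadjusted p under 0.05, the S100A2, S100A4, S100A13 and S100A14 described above, and CHTOP, which is not an S100 gene, differed by -0.01 with a mean r of -0.28.

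Receptors and binding partners of calgranulins came next, and 4 of 8 measured were higher at an unadjusted p under 0.05. CD36, a scavenger receptor, averaged 7.27 ± 0.71 in mild and 8.79 ± 0.83 in severe cows, a difference of 1.52 ± 0.42 (SE, limma adjusted p = 0.289). TLR4 differed by 0.76 ± 0.21 and its adaptor MYD88 by 0.31 ± 0.13, and CD14, the co-receptor, which is also among the macrophage markers below, by 0.97 ± 0.42. AGER, which encodes RAGE, averaged 5.12 over all cows, a dim signal, and differed by -0.08. The count was 2 without mild 3, without severe 4, severe 5 or severe 6, and without mild 2 and severe 5 together.

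Of 20 cytokines and transcription factors linked to calgranulin gene induction, 8 were higher at an unadjusted p under 0.05 and 0 lower, with all 20 differences above 0 and a median of 0.38. Over all genes 48.9% of differences were above 0. Only 10 of the 20 genes were not dim on average. NFKB1, the p50 subunit precursor of NF-kappaB, differed by 0.58 ± 0.16 (SE, limma adjusted p = 0.288), CEBPD, a C/EBP factor of acute inflammation, by 1.25 ± 0.39, and HIF1A, the hypoxia factor, by 0.50 ± 0.16. The cytokine genes IL6, TNF and IL10 were dim, with means of 3.96, 4.80 and 4.87 over all cows, though 1 severe cow had IL6 at 8.01. IL1B, dim in all 5 mild and 3 of 6 severe cows, was among the 8, at 1.34 ± 0.51 (SE, limma adjusted p = 0.335). Every severe cow lay above every mild cow in IL1B. IL1A, dim in 5 mild and 5 severe cows, differed by 0.84 ± 0.43. Without mild 2 and severe 5 the count was 5. The median member that was not dim had a mean r of 0.26 with the calgranulins over cows.

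Markers of the cells that carry calgranulins were higher in severe cows in part, and their part in the calgranulin differences was not tested. Of 9 surface receptors and regulators of neutrophils 6 were higher at an unadjusted p under 0.05, and their mean level lay between 4.93 and 5.48 in mild and between 5.90 and 7.17 in severe cows. CXCR1 averaged 4.70 ± 0.61 in mild cows, dim in all 5, and 7.37 ± 1.00 in severe cows (limma adjusted p = 0.215). BCL2A1, a survival factor, differed by 1.71 ± 0.41 (SE) and TREM1 by 1.26 ± 0.34. ITGAM averaged 3.34 over all cows and did not register on its probe set. The mean r with the calgranulins over cows was 0.60 for CXCR1, 0.49 for BCL2A1, 0.32 for the platelet-activating factor receptor PTAFR and 0.13 for VNN2, an adhesion-linked enzyme of leukocytes. IL1R2, the decoy receptor of interleukin 1, had 0.48 and like CXCR1 was dim in all 5 mild cows.

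Granule proteins of neutrophils, whose transcripts are made mainly in the bone marrow, gave 3 of 16 higher at an unadjusted p under 0.05, and 1 without mild 2 and severe 5. Those 3 were MMP9, gelatinase B, at 2.40 ± 0.90 (SE), CHI3L1, a chitinase-like protein, at 2.24 ± 0.71, and LTF, lactoferrin, at 0.91 ± 0.30 (limma adjusted p = 0.334, 0.307 and 0.308). In all 7 of the 16 were higher and 9 lower, with a median difference of -0.03, and OLFM4, a glycoprotein of neutrophils and epithelia, stood at -1.02 ± 0.91 (SE). MMP9, CHI3L1 and LTF are also made by other cells, and LTF is also in the list of metal withholding. Of the 16 genes 11 were dim on average. The myeloperoxidase and elastase genes MPO and ELANE averaged 4.53 and 3.82, the cathelicidin gene CAMP 3.74, and the mean level of the list was 5.07 to 5.60 in mild and 5.17 to 6.12 in severe cows.

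Of 10 monocyte and macrophage markers 5 were higher at an unadjusted p under 0.05, with a mean level of 7.98 to 9.29 in mild and 8.31 to 10.38 in severe cows. The complement genes C1QA and C1QB, active in tissue macrophages, differed by 1.20 ± 0.43 and 1.20 ± 0.44 (SE, limma adjusted p = 0.322 and 0.332), and the protease CTSS by 0.69 ± 0.27. This count was unsteady, being 1 without mild 2, 2 without severe 2, 4 or 5, 3 without mild 4, 8 without mild 5, 9 without severe 3 and 0 without mild 2 and severe 5. The median mean r with the calgranulins was 0.53 over its 10 members.

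Endometrial epithelium markers gave 0 higher and 2 lower of 14 at an unadjusted p under 0.05, ESR1, the estrogen receptor, at -0.61 ± 0.21 (SE), dim in 4 of 5 mild and all 6 severe cows, and CLDN10, a claudin, at -0.997 ± 0.416 (limma adjusted p = 0.312 and 0.359). Without mild 2 and severe 5 the list gave 3 higher and 1 lower, and 1 lower also without mild 1, 2 or 3 or severe 2, 4 or 5 alone. CLDN7, another claudin, was next at -0.42 ± 0.21. Their median mean r with the calgranulins was -0.08. Genes of squamous and stressed epithelium, which make calgranulins in skin, gave 1 of 7, TGM3 at 3.03 ± 0.49 (SE, limma adjusted p = 0.215), dim in all 5 mild cows. KRT5, a basal keratin, differed by 0.14 ± 0.11 with another probe set at -0.28, and the dim TGM1 by -0.20 ± 0.15.

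**Figure D4:**
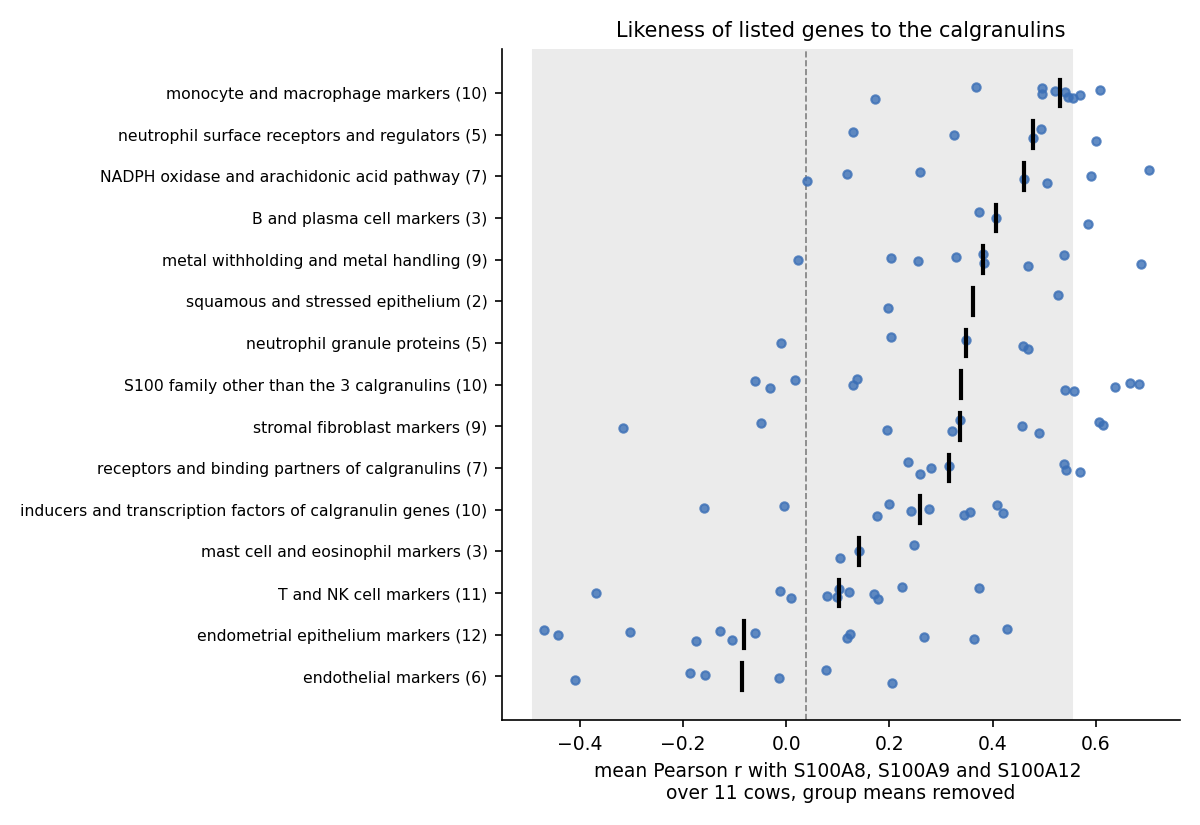
Mean Pearson r with the 3 calgranulins over 11 cows after removing group means (horizontal axis) of each listed gene not dim on average over all cows (points; some, such as CXCR1, were dim in all mild cows), by list (rows, number of genes in brackets), with the list median as a black bar. The grey band holds 90% of all genes (-0.49 to 0.55) and the dashed line is their median (0.04), and medians run from 0.53 for macrophage markers to -0.09 for endothelial markers.

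Genes that share functions with calgranulins were counted last. Of 13 genes of metal withholding and handling 6 were higher at an unadjusted p under 0.05. All 13 differences were above 0 with a median of 0.50, where 48.9% of all genes had a difference above 0. MT1A, a zinc-binding metallothionein, differed by 2.54 ± 0.72 (SE), CP, the copper carrier ceruloplasmin, by 1.20 ± 0.33, and HP, haptoglobin, dim in all 5 mild cows, by 1.03 ± 0.33 (limma adjusted p = 0.294, 0.289 and 0.307). CP ran with the calgranulins over cows at a mean r of 0.69 and MT1A at 0.20. The other probe sets of CP differed by 0.57 and 0.72.

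Calprotectin also carries arachidonic acid and assembles with the NADPH oxidase of phagocytes. Of 9 genes of these pathways 5 were higher at an unadjusted p under 0.05. PTGS2, the inducible prostaglandin synthase, averaged 6.95 ± 0.78 in mild and 9.05 ± 1.18 in severe cows, a difference of 2.10 ± 0.55 (SE, limma adjusted p = 0.285), and its mean r with the calgranulins was 0.70. The other probe sets of PTGS2, dim on average, differed by 0.90 and 0.07. CYBA, an oxidase subunit, differed by 0.45 ± 0.14 and the small GTPase RAC2 by 0.82 ± 0.31, with a mean r of 0.04 and 0.12. The count was 2 without mild 4, also 2 without mild 2 and severe 5 together, 3 without mild 1, mild 2, mild 3, severe 4, severe 5 or severe 6, and 7 without severe 3.

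Markers of further cell types are given because calgranulin-bearing tissue can hold these cells. Of 12 T and NK cell markers 10 were higher at an unadjusted p under 0.05, or 3 without mild 2 and severe 5, with ZAP70, a T cell kinase, at 1.10, PRF1, perforin, at 0.99 and CD3G, a receptor chain, at 1.24. Their median mean r with the calgranulins was 0.10. Of 6 B and plasma cell markers 6 were higher, or 3 without mild 1 or severe 6, 1 with arrays weighted by quality and 0 without mild 2 and severe 5, with JCHAIN at 1.80, IGHM at 2.35 and POU2AF1, dim in all 5 mild cows, at 2.28. Stromal fibroblast markers gave 1 higher and 1 lower of 9, PDGFRA at 0.97 and HOXA10 at -0.71, with PDGFRB at 0.21. The other probe sets of PDGFRA, dim on average, differed by 0.17 and 0.13.

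Endothelial markers gave 0 higher and 1 lower of 7, the dim KDR at -0.24, with CDH5 at 0.24 and CLDN5 at 0.36. Another probe set differed by 0.01 for KDR and by -0.01 for CDH5. Mast cell and eosinophil markers gave 1 higher and 1 lower of 5, FCER1A at 0.86 and TPSB2 at -0.39, with KIT at -0.22. Other probe sets gave 0.37 for FCER1A, -0.09 for TPSB2 and -0.46, -0.33 and 0.05 for KIT. Red blood cell genes gave 0 higher and 1 lower of 5, and HBB, HBA and AHSP averaged 4.07, 3.88 and 4.04 over all cows, all dim. Counts of 0 or 1 in these lists and in the stromal list moved to 0, 1 or 2 with single cows left out.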

How the data were processed

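Endometrial RNA of 11 cows was measured on 1 Affymetrix bovine array each. The authors deposited log2 values made with RMA, per the submitters' processing notes. Range and spread of the numbers set the log2 scale, and the RMA version was not given in the sources used here. RMA equalises arrays by quantiles, which hides any shift shared by every transcript. Of 24128 probe sets 112 controls were left out. The platform annotation of 2016 gave 13292 probe sets 1 symbol, 86 several and did not list 10638; RefSeq gene numbers matched 13263 and renamed 0.

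Groups were compared in limma 3.58.1 under R 4.3.3 (two-sided, Benjamini-Hochberg over 24016 probe sets, threshold 0.05), in which all limma adjusted p-values were computed. Co-variation used exact permutation of cows within groups, in Python 3.11.15. Both procedures were tested on simulated data. For limma these had normal noise of equal spread in both groups. They therefore do not cover unequal spread such as that of the main S100A9 probe set (SD 0.22 in mild, 1.38 in severe cows). Of 16 gene lists, genes measured by at least 1 probe set with 1 symbol entered, by the probe set with the highest mean.

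Named are the members, the 4 other S100 genes and 3 genes of each list with the smallest p, the 12 genes most like the calgranulins and a panel of 12 genes, of which 10 were measured. Other named genes were chosen after their values were seen. Members, lists and rules were chosen with earlier results of these data known. Separate animals are the replicates, and the blocks of the allocation were not used here. The number of arrays limits the precision.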

Additional observations from a re-analysis of the deposited data

Results flagged for a closer look

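Of 76 groups of cows looked at, over the members, the other S100 genes, the 12 genes most like the calgranulins and the panel, 7 had 1 cow far from the others, and chance gives about 1 in 20. Severe 4, the cow with the highest calgranulins, stood apart as the highest severe cow in RNF31 at 7.38 (next cow 7.16), in FMOD at 10.35 (next 9.52) and in PMVK at 7.01 (next 6.53). Mild 4 was the highest mild cow in SYAP1 at 8.41 (next 8.24). Severe 5 was the lowest severe cow in EPCAM at 8.69 (next 10.36) and the highest in IL1B at 8.30 (next 6.20). Mild 2 was the lowest mild cow in IL1B at 4.27 (next 4.65). None of these was a calgranulin probe set. RNF31, FMOD, PMVK and SYAP1 were picked because they run with the calgranulins, in which severe 4 and mild 4 were the highest of their groups. The rate of 1 in 20 therefore does not apply to them, and nothing is read from the count.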

How the results depend on the processing

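The differences of S100A8, S100A9 and S100A12 kept their direction under each alternative run, and with each cow left out ran from 2.80 to 3.59, from 1.22 to 1.96 and from 2.58 to 3.39. The other S100A9 probe set gave 3.05, where probe sets differ. The count of probe sets at an adjusted p under 0.05 ran from 0 to 16 and that of other S100 genes from 3 to 5 with each cow left out. For S100A8 with S100A9, S100A8 with S100A12 and S100A9 with S100A12, r ran from 0.53 to 0.84, 0.97 to 0.99 and 0.41 to 0.79. The last pair kept its adjusted p under 0.05 without severe 3, 5 or 6 alone and lost it without each other cow (adjusted p 0.0512 to 0.121). In the severe cows alone the 3 values of r were 0.95, 0.97 and 0.91, and with the 2 farthest cows left out 0.51, 0.96 and 0.45, none past the threshold, with fewer cows. Without mild 2 and severe 5, r was 0.98 for S100A8 with S100A12 and 0.83 for S100A9 with S100A12 (both adjusted p = 0.0726). Of the 12 most like genes 2 remained in the severe cows alone, 5 by rho and 5 to 9 with each cow left out. A shift to a common median moved the 3 differences to 3.24, 1.71 and 3.04, equal to 2 decimals. No paired analysis was possible because the labels give no numbers shared between the groups. Low signals are compressed, which limits sizes in dim cows.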

Other observations

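The 6 genes with the highest r with the main S100A9 probe set were not among the 6 with the highest r with S100A8 or S100A12. They were chosen after their values were seen, and the difference in r between the calgranulins was not tested. With group means removed, the genes with the highest r with it over 11 cows were LGALS3BP at 0.95, RNF31 at 0.94, USP18 at 0.93, MX2 at 0.93, DTX3L at 0.93 and PARP14 at 0.91, and S100A8 ranked 82 of 7134 by the same measure. LGALS3BP is a secreted glycoprotein, USP18 removes ISG15 from proteins, MX2 is an antiviral GTPase that was dim in all 5 mild cows, and DTX3L and PARP14 act in interferon signalling. Each of the 6 had a smaller SD in mild than in severe cows, such as 0.22 and 1.57 for MX2 and 0.09 and 0.43 for LGALS3BP. The main S100A9 probe set shared this (0.22 and 1.38) and S100A8 did not (1.31 and 1.18). Within groups S100A8 and S100A9 had r = 0.96 in mild and 0.95 in severe cows. How far the unequal spread set these values of r was not tested. With S100A8 the r of LGALS3BP, USP18, MX2, DTX3L and PARP14 was 0.65, 0.65, 0.66, 0.68 and 0.56. RNF31 ran with both, at 0.83 with S100A8, and without severe 4 its r was 0.71 with S100A9 and 0.77 with S100A8. On the other S100A9 probe set these 5 genes had r of 0.88, 0.88, 0.87, 0.86 and 0.85, below the 0.93 of UBE2L6, and that probe set's own r with S100A8 was 0.85, so the pattern depends on the probe set. Without severe 4, the highest cow, the values of the 5 were 0.86, 0.73, 0.70, 0.68 and 0.74 with S100A9 and 0.30, 0.24, 0.25, 0.30 and 0.09 with S100A8. For S100A8 the gene with the highest r was S100A12, followed by UBE2L6, and UBE2L6 kept r = 0.92 with S100A8 without severe 4.

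At the other end of the likeness order stood DGKD, a diacylglycerol kinase, with a mean r of -0.80 with the calgranulins over 11 cows, and FOLR3, a secreted folate receptor, with -0.79. Of 5085 probe sets that the annotation does not list and that were not dim, 6 were at least as like the calgranulins as the last of the 12 genes, the highest having a mean r of 0.83.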
